A study of Mus musculus with 8 samples.

Results

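The alveolar capillary bed of the mouse lung is built from 2 endothelial cell types, and 10 genes known to mark them were followed here in sorted lung endothelium. The 6 aerocyte markers were Car4, Ednrb, Fibin, Tbx2, Prx and Apln, and the 4 general capillary markers were Aplnr, Cd93, Sema3c and Hpgd. The genes were taken by symbol from a deposited table of 34899 genes. All 10 had a row, and all 10 passed the filter on low values, a normalised count of 10 or more in 4 or more libraries.

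Aerocytes are large, thin cells that face the gas exchange surface, while general capillary cells are smaller, control vascular tone and can renew both types. The types signal to each other: aerocytes make the peptide apelin, encoded by Apln, and general capillary cells carry its receptor, encoded by Aplnr. Aerocytes also carry Ednrb, the type B endothelin receptor, which binds and clears endothelins made by neighbouring endothelium.

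RNA-seq libraries had been made from lungs of female C57BL6 mice, from cells sorted as CD45-negative and CD31-positive, in 4 HF and 4 LF libraries. The labels do not spell out HF and LF, and they give no age, further treatment or allele. The series title concerns oxidative stress from neutrophils, obesity, inflammation of vessels and the transmigration of metastatic cells. RNA was isolated with TRIzol LS, and a SMART-Seq kit, which copies whole transcripts from little RNA, gave the libraries. The design text gives 4 mice per group, but the labels do not say whether a library is 1 mouse or a pool, so p-values measure the spread between these libraries. Levels are normalised read counts, not scaled for gene length, and group values are mean ± SD over 4 libraries. A fold divides HF by LF, comes from the fit on log2(value + 1), and is followed by its 95% interval. Where genes are counted by the higher or lower mean, the mean of log2(value + 1) is meant, which can differ in direction from the mean count. Because these are bulk libraries, fewer cells of a type and less RNA per cell cannot be told apart.

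Libraries held 10631506 to 20781564 reads assigned to genes. LF 1 and LF 2 stood apart from the other 6 libraries on the first principal component over all genes tested (-56.4 and -50.9, against -6.79 to 39.6). LF 3 and LF 4 stood apart on the second component (-38.5 and -34.2, against -1.41 to 29.6). LF 1 and LF 2 also held 0.725% and 0.635% of reads in gene models of the unconfirmed class TEC, against 0.286% to 0.443% elsewhere. Results are therefore also given without the pair LF 1 and LF 2, and in turn without the pair LF 3 and LF 4, a choice made after these libraries were seen to differ. Shared endothelial markers such as Pecam1, Cldn5, Esam and Ramp2 were abundant in every library, with sums over 12 markers of 162660.1 to 178926 in HF and 117545 to 187611 in LF. Leukocyte markers summed to 480.0 to 837 in HF and 701 to 1085 in LF over 9 genes, with Marco, Cd3e and Ncr1 below the filter. Alveolar type 1 epithelial markers were present, with sums over 7 genes of 10963 to 15802 in HF and 14652 to 24620.1 in LF. The most abundant was Hopx, at 5966 ± 377 in HF and 7204 ± 1784 in LF, which took a different course from the rest. LF 3 and LF 4 together were 1.49 times LF 1 and LF 2 for Hopx, and 0.27 to 0.55 times for the other genes of the list.

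Promoter sequence was matched for 7 of the 10 genes in RefSeq's table for GRCm38.p6, as the 250 bases before the annotated start. The aerocyte genes Car4, Ednrb and Fibin took nearly the same course over the 8 libraries, and Hpgd is shown beside them as the general capillary gene with the highest level per kilobase. Sequences run 5′ to 3′ on the gene's strand. Capitals mark the core bound by ETS factors, a family that governs endothelial genes, searched as GGAA on both strands (TTCC on the strand shown). For Fibin only 60 bases are shown, since the other 190 lie in an exon of the GENCODE M21 annotation. The Ednrb window holds 0 bases of an annotated exon but lies within the Ednrb gene of that annotation, which starts further upstream, at 103844402.
Car4, chr11:84957504-84957753, plus strand: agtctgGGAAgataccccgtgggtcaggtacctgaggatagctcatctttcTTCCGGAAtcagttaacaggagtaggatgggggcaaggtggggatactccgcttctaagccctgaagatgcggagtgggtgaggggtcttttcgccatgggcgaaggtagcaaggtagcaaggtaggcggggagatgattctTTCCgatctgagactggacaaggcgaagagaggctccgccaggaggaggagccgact
Ednrb, chr14:103843702-103843951, minus strand: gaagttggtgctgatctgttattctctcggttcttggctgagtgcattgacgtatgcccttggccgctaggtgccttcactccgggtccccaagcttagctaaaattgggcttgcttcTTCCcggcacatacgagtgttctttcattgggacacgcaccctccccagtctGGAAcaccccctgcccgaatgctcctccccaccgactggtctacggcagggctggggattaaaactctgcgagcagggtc
Fibin, chr2:110363184-110363243, minus strand: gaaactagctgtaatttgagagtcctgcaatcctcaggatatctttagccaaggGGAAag
Hpgd, chr8:56294302-56294551, plus strand: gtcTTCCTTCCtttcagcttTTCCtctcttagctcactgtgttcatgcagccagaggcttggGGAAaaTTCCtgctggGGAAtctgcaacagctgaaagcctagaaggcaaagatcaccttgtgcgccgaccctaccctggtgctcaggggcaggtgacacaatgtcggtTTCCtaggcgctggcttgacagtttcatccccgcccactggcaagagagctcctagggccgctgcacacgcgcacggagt
The ETS core occurred 4 times in the Car4 window, 2 times in that of Ednrb, 4 times in the whole 250 bases of Fibin and 7 times in that of Hpgd. Of the 7 windows, 6 held it, the exception being Sema3c, whose window lies wholly in annotated exons. It is common, as 93.4% of 32851 promoter windows of this length hold it, with a median of 3 matches. The core bound by T-box factors, the family of Tbx2, was searched as GGTGTG on both strands and was in 0 of the 7 windows, against 16.3% of all windows. These matches describe letters in a window, and say nothing of binding.

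None of the 10 genes passed the test between HF and LF once it was adjusted over all genes. By limma with Benjamini-Hochberg adjustment over 17067 genes, 0 of the 10 passed an adjusted p under 0.05, where 0.0% of all genes tested did, and their adjusted p values were 0.355 to 0.916. At an unadjusted p under 0.05 limma gave 1 of the 10, Sema3c, higher in HF, against 11.0% of all genes and 6.36% for those higher in HF. edgeR's quasi-likelihood test called 0 of the 10 (0.0% of all genes) and DESeq2 on the recovered reads called 0 of the 10 (2.17% of genes with an adjusted p). In the authors' deposited table the lowest adjusted p among the 10 was 0.0615, for Sema3c. For 8 of the 10 the mean log2 level was higher in HF, against 53.2% of all genes tested. Of these 8, Fibin had nearly equal mean counts (3121 ± 576 in HF, 3122 ± 1258 in LF). The median log2 fold change of the 10 was 0.10, and that of all genes 0.02. Over genes with a mean of at least 50 normalised counts, a level that all 10 exceed, the median was 0.075. HF and LF did not overlap in 1 of the 10, against 5.43% of all genes tested.

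**Figure D1:**
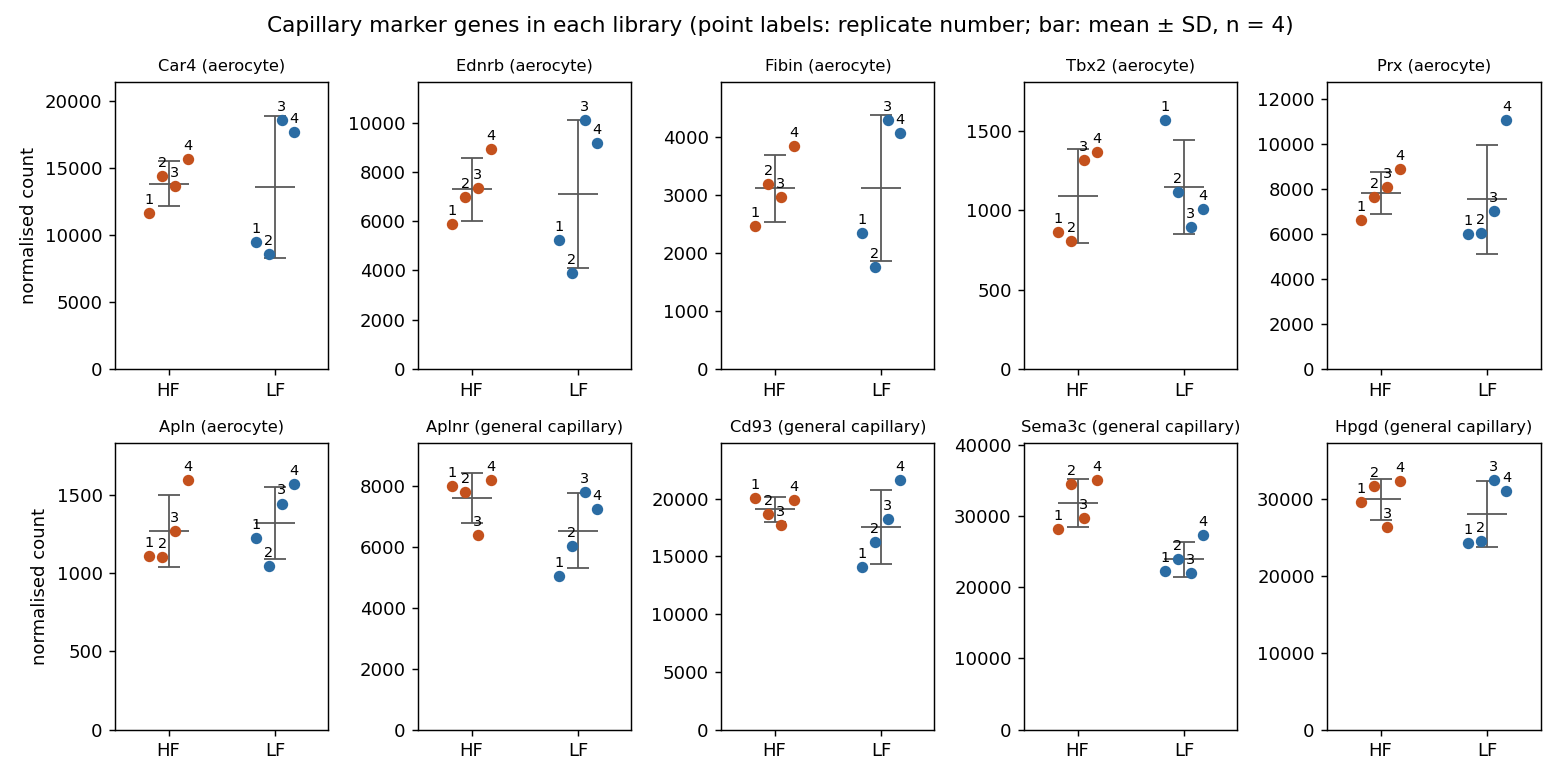
Normalised count of the 10 marker genes in each library, with the group as the horizontal axis, points numbered by replicate and bars at the mean ± SD (n = 4). LF 3 and LF 4 sit above every HF library for Car4, Ednrb and Fibin, LF 1 and LF 2 sit below, and in Sema3c every HF point lies above every LF point.

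Car4 (ENSMUSG00000000805), the carbonic anhydrase on the luminal face of capillary cells that speeds the exchange of carbon dioxide, was the most abundant aerocyte marker per kilobase of exon. It was at 11615, 14395, 13608 and 15660.1 normalised counts in HF 1 to HF 4 and at 9455, 8539.5, 18579.5 and 17671 in LF 1 to LF 4. The LF libraries thus split into a low and a high pair, and all 4 HF values lay in the gap between them. The means were 13819 ± 1696 and 13561 ± 5296, a fold of 1.08 (0.744 to 1.56).

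Ednrb (ENSMUSG00000022122) showed the same split into LF pairs. Its HF values were 5872, 6989, 7358 and 8929 and its LF values were 5239, 3905, 10119 and 9177, a fold of 1.09 (0.730 to 1.63). Fibin (ENSMUSG00000074971), which encodes a secreted protein first described in fin development, was at 2465, 3188, 2977 and 3855 in HF and at 2346, 1765, 4305 and 4072 in LF, a fold of 1.06 (0.717 to 1.55). In each of these genes LF 1 and LF 2 were the lowest libraries and LF 3 and LF 4 the highest.

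The course of Car4, Ednrb and Fibin was shared closely. As a measure of likeness, the root mean square difference between the log2 deviations of 2 genes from their own means over the 8 libraries was 0.056 for Ednrb and Fibin, 0.089 for Car4 and Fibin and 0.0996 for Car4 and Ednrb, the lowest of all 45 pairs of markers. LF 3 and LF 4 together were 2.01, 2.11 and 2.04 times LF 1 and LF 2 for Car4, Ednrb and Fibin. The highest LF library was 2.18, 2.59 and 2.44 times the lowest, where the median over 12203 genes with a mean of at least 50 was 1.52. Of those genes, 88.7%, 93.9% and 92.4% had a smaller range over the LF libraries than Car4, Ednrb and Fibin. In HF the highest was 1.35, 1.52 and 1.56 times the lowest, against a median of 1.27.

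Tbx2 (ENSMUSG00000000093), a T-box transcription factor, went the other way within LF. It was at 864, 809, 1319 and 1369 in HF and at 1573, 1118, 894 and 1012 in LF, so LF 1 was the highest library of all and LF 3 the lowest of its group. The fold was 0.944 (0.688 to 1.29), and LF 3 and LF 4 together were at 0.709 times LF 1 and LF 2. Its root mean square difference from Car4, Ednrb and Fibin was 0.58 to 0.59, the largest values among the 45 pairs.

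Prx (ENSMUSG00000053198), which encodes the scaffold protein periaxin, was at 6627, 7621, 8059 and 8874 in HF and at 5971, 6051, 6998 and 11059.7 in LF. A single library, LF 4, was above all others, and the fold was 1.07 (0.799 to 1.42). Prx overlaps Gm15541 on the other strand, and the sources used here do not say whether counting used strand. Apln (ENSMUSG00000037010) was at 1109.6, 1106, 1269 and 1594 in HF and at 1222, 1048, 1446 and 1569.6 in LF. Its groups covered almost the same range, with a fold of 0.961 (0.757 to 1.22).

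**Figure D2:**
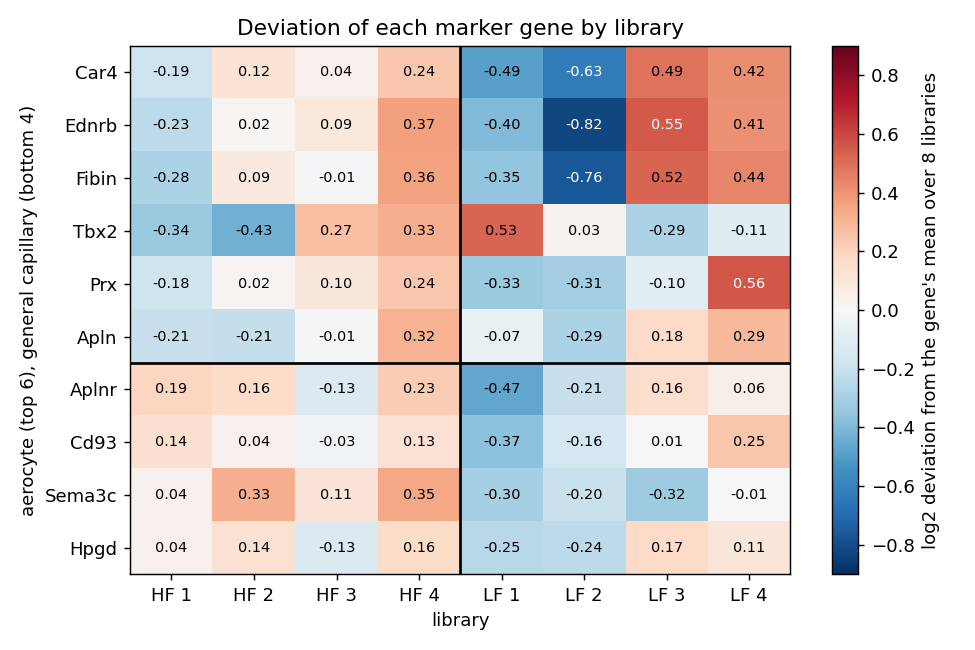
Log2 deviation of each marker gene (rows) from its own mean over the 8 libraries (columns), printed in each cell, with red above and blue below the mean. Car4, Ednrb and Fibin run from -0.82 to 0.55 with LF 1 and LF 2 low and LF 3 and LF 4 high, while Tbx2 is at 0.53 in LF 1 and at -0.29 in LF 3.

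Among the general capillary markers, Sema3c separated the groups and the other 3 did not. Sema3c (ENSMUSG00000028780), a secreted guidance molecule, was at 28227, 34457, 29747 and 34985 in HF and at 22326, 23962, 22055 and 27389 in LF. Every HF value lay above every LF value, as in 3.47% of all genes tested. The means were 31854 ± 3375 and 23933 ± 2453, a fold of 1.33 (1.05 to 1.68), and limma's adjusted p was 0.355. Its log2 fold change of 0.41 became 0.37 when LF 1 and LF 2 were left out and 0.46 when LF 3 and LF 4 were.

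Aplnr (ENSMUSG00000044338), the apelin receptor, was at 7974, 7797, 6374 and 8166 in HF and at 5040.1, 6029.9, 7786 and 7242 in LF, a fold of 1.17 (0.926 to 1.48). The 3 highest HF libraries were above all LF libraries, and HF 3 lay among the LF values. Cd93 (ENSMUSG00000027435), a transmembrane C-type lectin receptor of endothelium, was at 20054, 18668, 17749 and 19921 in HF and at 14055, 16255, 18266 and 21585 in LF, a fold of 1.10 (0.867 to 1.40). The LF values reached both below and above those of HF.

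Hpgd (ENSMUSG00000031613), the dehydrogenase that inactivates prostaglandins, was at 29568, 31647, 26291 and 32278 in HF and at 24279, 24465, 32396 and 31058 in LF. LF 1 and LF 2 were below all HF libraries and the fold was 1.07 (0.838 to 1.38). In human lung HPGD serves as an aerocyte marker. Hpgd overlaps Gm45540 on its own strand. Per kilobase of exon over the 8 libraries, the order of levels was Hpgd (17230 ± 2059 normalised counts per kilobase), Car4 (6964 ± 1853), Sema3c (3907 ± 706), Cd93 (2744 ± 354), Aplnr (1906 ± 303), Ednrb (1687 ± 501), Fibin (1377 ± 399), Prx (1373 ± 304), Apln (411 ± 68.4) and Tbx2 (309 ± 76.0). From Aplnr to Prx neighbours in that order lay within their spread over libraries.

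In the annotation of GRCm38 the genes lie on 7 chromosomes. Car4 and Tbx2 are on chromosome 11, from 84957786 to 84966044 and from 85832551 to 85841948. Fibin, Aplnr and Cd93 are on chromosome 2, starting at 110360917, 85136225 and 148436640. Sema3c spans 17574281 to 17730268 on chromosome 5, and Apln 48025146 to 48034853 on chromosome X.

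The ratio of the 2 sets was then taken in each library, as the geometric mean of the 6 aerocyte markers over that of the 4 general capillary markers. It was 0.167, 0.181, 0.231 and 0.226 in HF 1 to HF 4 and 0.237, 0.177, 0.247 and 0.249 in LF 1 to LF 4. LF 1, LF 3 and LF 4 lay above every HF library, while LF 2 lay between HF 1 and HF 2, so the groups overlapped. The mean ratio was 0.201 ± 0.0321 in HF and 0.227 ± 0.0343 in LF. On the log2 scale the means were -2.33 ± 0.23 and -2.15 ± 0.24, and the difference of -0.18 was smaller than the SD of either group. It depended on single libraries, at -0.09 without HF 1 and -0.29 without LF 2, which also leaves all LF ratios above all HF ratios. It was -0.32 when LF 1 and LF 2 were left out and -0.04 when LF 3 and LF 4 were. Values per kilobase, summed over each set, gave -0.08, and the median of each set gave -0.06. The size of the ratio has no meaning between genes of different length, so only differences between libraries are read from it.

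The mean log2 level of the general capillary set was 14.2 ± 0.11 in HF and 14.01 ± 0.20 in LF, a difference of 0.22, while that of the aerocyte set was 11.9 ± 0.23 and 11.9 ± 0.37, a difference of 0.04. Leaving out each of the 10 genes in turn gave differences from -0.22 (without Hpgd) to -0.11 (without Sema3c), and the groups overlapped each time.

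The aerocyte set did not take 1 course within LF. With Car4, Ednrb and Fibin alone over the general capillary set, the log2 ratio ranged from -1.99 to -0.94 in LF and from -1.79 to -1.35 in HF. With Tbx2, Prx and Apln alone it ranged from -3.10 to -2.63 in LF and from -3.40 to -2.86 in HF. In LF 1 the ratio to the general capillary set deviated from its own mean by 0.87 for Tbx2 and by -0.14 for Car4 on the log2 scale. Leaving out Tbx2 widened the LF range of the log2 ratio from 0.50 to 0.69.

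**Figure D3:**
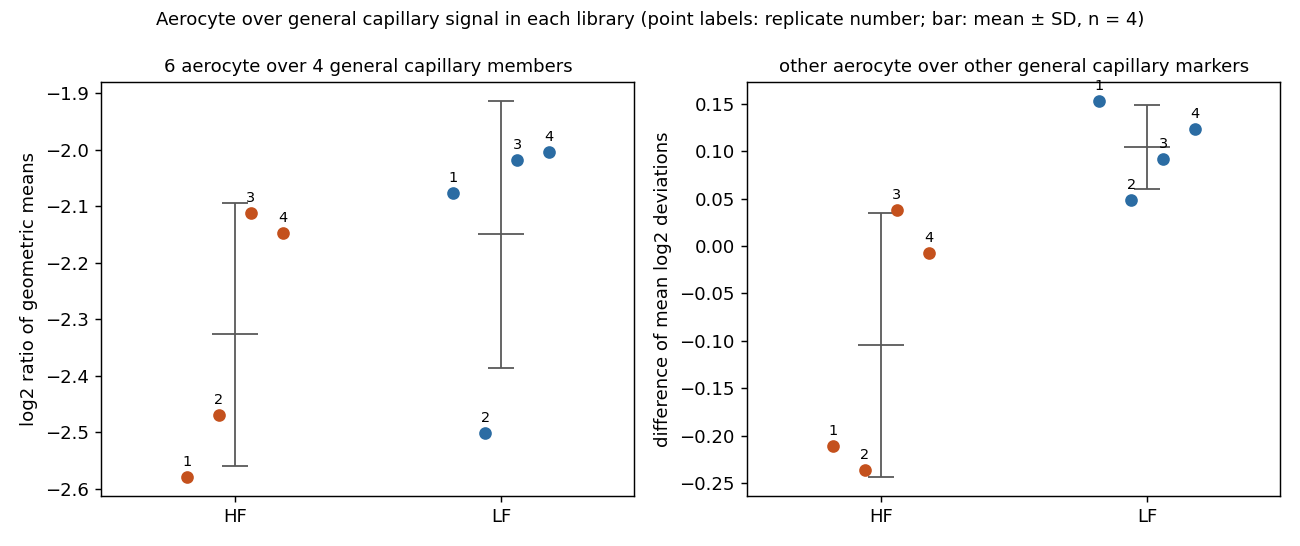
Left, log2 ratio of the geometric means of the 6 aerocyte and 4 general capillary genes in each library. Right, mean log2 deviation of the other aerocyte markers minus that of the other general capillary markers. Points are numbered by replicate, bars are mean ± SD (n = 4), and LF 2 lies apart from the other LF libraries on the left at -2.50.

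Each set was also read against the shared endothelial markers, whose own mean log2 deviation differed by 0.19 between HF and LF. The general capillary set's mean log2 deviation minus that of the 12 shared markers was between -0.07 and 0.06 in HF and between -0.10 and 0.09 in LF. The aerocyte set minus the shared markers was more spread, at -0.30, -0.20, 0.05 and 0.15 in HF 1 to HF 4 and at 0.17, -0.18, 0.17 and 0.13 in LF 1 to LF 4. The difference between HF and LF on this scale was -0.15 for the aerocyte set and 0.03 for the general capillary set. By the mean of the aerocyte set, HF 1, HF 2 and LF 2 were thus the lowest libraries for their endothelial signal. The genes of the set differed in how far HF 2 lay from LF 1. As a deviation from its own mean, the log2 ratio to the general capillary set was compared in HF 2 and LF 1. It was -0.60 and 0.87 for Tbx2, and -0.38 and 0.28 for Apln. It was -0.04 and -0.14 for Car4, -0.15 and -0.05 for Ednrb, -0.08 and -0.008 for Fibin, and -0.14 and 0.02 for Prx.

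The ligand and receptor Apln and Aplnr gave a narrower view of the same contrast. Apln over Aplnr was 0.139, 0.142, 0.199 and 0.195 in HF and 0.243, 0.174, 0.186 and 0.217 in LF. The means were 0.169 ± 0.0328 and 0.205 ± 0.0310, and the groups overlapped. The other apelin receptor ligand, Apela, was at 0 in all HF libraries and had a mean of 1.13 ± 2.26 normalised counts in LF, below the filter.

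Of the endothelin ligands, Edn1 and Edn3 had groups that did not overlap, while those of their receptor Ednrb did. In the list of apelin and endothelin genes the groups were apart in 3 of the 11 tested, against 5.43% of all genes tested. The other was Rgs4, an inhibitor of G protein signalling, with every HF value below every LF value, and it was picked out after its values were seen. Edn1, which encodes the main endothelial vasoconstrictor peptide, was at 3559.6, 3659.7, 3668 and 3486 in HF and at 2158, 2475, 2729.9 and 2719.7 in LF. Every HF value was above every LF value, with a fold of 1.43 (1.21 to 1.70) and an adjusted p of 0.163 by limma. Edn3, another ligand of Ednrb, was at 118, 67.5, 94.2 and 84.3 in HF and at 193, 253, 139.5 and 149 in LF, every HF value below every LF value, with a fold of 0.502 (0.352 to 0.718) and an adjusted p of 0.164 by limma. Ednra, the type A receptor known from smooth muscle, had a fold of 0.798 (0.603 to 1.06), Ece1, which cleaves the endothelin precursor, was at 16830 ± 1638 and 15458 ± 3784, and Edn2 was below the filter. Of the 15 genes of apelin and endothelin signalling, 11 were tested, 6 with the higher mean in HF, and limma called 0 at an adjusted p under 0.05. Pericyte and smooth muscle markers, which summed to 2655 to 3097 in HF and 3415 to 4844 in LF over 8 genes, had the lower mean in HF in 7 of 8, and their part in the values of Edn3 and Ednra was not tested.

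Wider lists of markers were read the same way. Among 16 other general capillary markers the mean was higher in HF for 14 and limma called 0. Their median log2 fold change was 0.22, where that of all genes tested was 0.02. The shift was not particular to them, since the 12 shared endothelial markers also had a median of 0.22, with 11 higher in HF. Among the most abundant, Ptprb, a phosphatase that restrains Tek signalling, had a fold of 1.14, the angiopoietin receptor Tek 1.19, Tmem100, a target of BMP signalling, 1.32 and the integrin subunit Itga1 0.999. The groups did not overlap in 2 of the 16, Plvap and Cadm1, both higher in HF, against 5.43% of all genes tested. Plvap, which forms the diaphragms of caveolae and fenestrae, was at 24092 ± 4087 in HF and 14850.0 ± 3232 in LF. Both were picked out after their values were seen. Of 15 other aerocyte markers, 14 were tested and limma called 0. Their median log2 fold change was 0.03, 8 were higher in HF by the mean log2 level, and the groups were apart in 0 of the 14. Of these 8, Kdr had the lower mean count in HF (19058 ± 1455 against 19189 ± 4264). The highest log2 fold change among them, 0.82, was that of Igfbp7, also picked out after its values were seen. Cyp4b1, a cytochrome of the P450 family, had a fold of 1.13, the VEGF receptor Kdr 1.01, Emp2, a membrane protein also abundant in alveolar type 1 cells, 0.851 and the adhesion molecule Icam2 1.18. Sostdc1 was below the filter.

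In each library the mean log2 deviation of the other aerocyte markers minus that of the other general capillary markers was -0.21, -0.24, 0.04 and -0.01 in HF 1 to HF 4 and 0.15, 0.05, 0.09 and 0.12 in LF 1 to LF 4. All HF values were below all LF values, with HF 3 and LF 2 nearly touching, and the difference was -0.21. Leaving out LF 1 and LF 2 gave -0.21, and leaving out LF 3 and LF 4 gave -0.20. The separation was narrow: after leaving out each of the 30 genes in turn, the groups overlapped in 10 cases, and they overlapped with quantile normalisation (difference -0.19). No test was made, since these lists were chosen with earlier results of these data known.

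The direction of most markers depended on which LF libraries were used. Without LF 1 and LF 2, 3 of the 10 had the higher mean in HF (45.4% of all genes) and limma called 0 (3.76% of all genes, 3.09% higher and 0.662% lower), with log2 fold changes of -0.40 for Car4, -0.42 for Ednrb and -0.44 for Fibin. Without LF 3 and LF 4, 9 of the 10 had the higher mean in HF (52.5% of all genes) and limma called 7, all higher. Of all genes it then called 20.0%, with 14.0% higher and 6.02% lower. Those were Car4 (log2 fold change 0.61, adjusted p = 0.00906), Ednrb (0.67, 0.0162), Fibin (0.60, 0.0284), Prx (0.37, 0.0444), Aplnr (0.45, 0.0260), Cd93 (0.34, 0.0406) and Sema3c (0.46, 0.0205). Shared endothelial markers shifted too, since limma called 11 of 12 higher and 1 lower without LF 3 and LF 4, and 0 of 12 without LF 1 and LF 2. LF 1 and LF 2 were also the libraries with the largest share of TEC reads, and its part in these values was not tested.

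**Figure D4:**
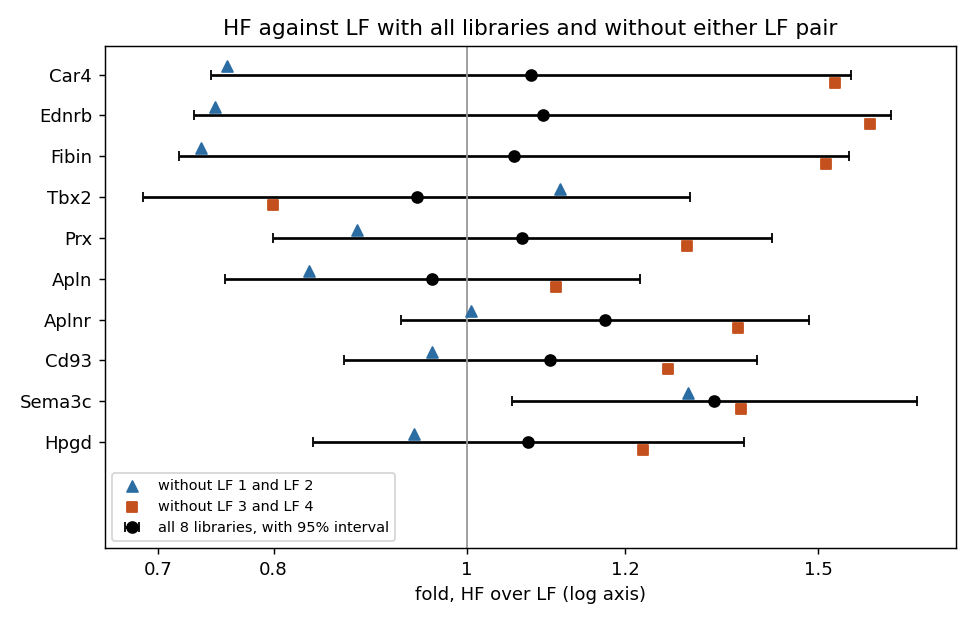
Fold of HF over LF for the 10 marker genes on a log axis, with all 8 libraries (circle, 95% interval), without LF 1 and LF 2 (triangle) and without LF 3 and LF 4 (square). Sema3c and Aplnr stay above 1 in all of these, Aplnr only just without LF 1 and LF 2 (log2 fold change 0.006). Car4, Ednrb and Fibin lie on opposite sides of 1 in the fits without either pair.

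The genes whose course was most like Car4, among 12203 genes with a mean of at least 50, were Zdhhc9 (root mean square difference 0.044 over the 8 libraries), Ggh (0.079), Cd34 (0.082), Nup35 (0.091) and Pcdhac2 (0.092). Zdhhc9 was nearer to Car4 than Ednrb or Fibin were. Cd34, the sialomucin of capillary endothelium and progenitor cells, was at 5526, 6495, 6242 and 7144 in HF and at 4221, 4335, 7708 and 7629.9 in LF, the same low and high LF pairs as for Car4. Among the genes nearest to Aplnr were Rraga (0.039), Oxa1l (0.054), Nelfa (0.055) and Pgpep1 (0.056).

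Marker lists of other cell types were counted in the same way. Alveolar type 1 markers had the lower mean in HF in 7 of 7, with Ager at 4026 ± 1346 in HF and 5938 ± 2703 in LF. The median log2 fold change of that list was -0.52 with all libraries, -0.17 when LF 1 and LF 2 were left out and -1.04 when LF 3 and LF 4 were, and that of Ager was -0.52, -0.05 and -0.99. Alveolar type 2 markers had the higher mean log2 level in HF in 2 of 7 (median -0.15). Of these 2, Sftpb had the lower mean count in HF (145 ± 56.1 against 169 ± 122). The higher mean log2 level was in HF in 6 of 7 when LF 1 and LF 2 were left out (median 0.30). It was in HF in 1 of 7 when LF 3 and LF 4 were (median -0.86). Fibroblast markers had the lower mean log2 level in HF in 7 of 7, with sums over 7 genes of 1441 to 3268 in HF and 2280.3 to 4373 in LF. By the mean count, Dcn (228 ± 195 in HF, 214 ± 91.1 in LF) and Lum (45.1 ± 35.9 and 38.4 ± 14.9) were higher in HF. With all 8 libraries limma called 0 genes in these lists, and 46.8% of all genes tested had the lower mean in HF. The part of epithelial or mesenchymal RNA in the values of Tbx2, a gene that lung mesenchyme also expresses, was not tested. Arterial markers had the higher mean log2 level in HF in 6 of 7 tested genes (median 0.33), and venous markers in 4 of 7 (median 0.16). Of the 6 arterial genes, Fbln5 had nearly equal mean counts (1052 ± 198 in HF, 1058 ± 304 in LF). The groups were apart in 3 of the 7 arterial genes, against 5.43% of all genes tested. Sox17 had the largest fold of them, at 4317 ± 787 against 2363 ± 895. Its log2 fold change was 0.93, 1.42 when LF 1 and LF 2 were left out and 0.44 when LF 3 and LF 4 were. The arterial gene Mgp was lower in HF, with a fold of 0.718.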

How the data were processed

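RNA-seq reads of sorted lung endothelium were processed by the authors, with STAR 2.6.1b, DESeq2 1.24.0 and featureCounts 2.0.0 named in the submitters' processing notes. Build, annotation and strand setting: not given in the sources used here. Per the file headers, the authors deposited a normalised count signal per gene and library, their mean, a log2 fold change and its error, a score (the Wald statistic), and p-values before and after adjustment. Each library's signal was whole reads divided by a factor, and 100% of values came out whole within 0.01 reads. All 34899 gene IDs matched GENCODE M21, which gave positions and exon lengths. Genes that reached a normalised count of 10 in 4 or more libraries were fitted with limma 3.58.1 (trend) on log2(value + 1), with Benjamini-Hochberg adjustment over all of them at 0.05. The script was tested on simulated data. edgeR 4.0.16 and DESeq2 1.42.0 were run on the recovered reads in R 4.3.3. Ratios of sets, likeness and marker lists were described without a test. All 10 members were named, with up to 4 of the most abundant genes per other list, endothelin and apelin ligands and receptors, and the 5 genes nearest to Car4 and to Aplnr, of which 1 is not reported here. Members and lists were chosen with earlier results of these data known. Every pair of libraries differed by more than sampling noise, with a chi-square per degree of freedom of 9.06 or more. Alternatives were other pseudocounts, filters, normalisations and tests, the replicate number as a block, and leaving out libraries or genes. Reads without molecular identifiers are not independent molecules, so low counts are less precise than their number implies.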

Additional observations from a re-analysis of the deposited data

Results flagged for a closer look

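LF 2 lay far from the other LF libraries in the log2 ratio of aerocyte to general capillary markers, at -2.50 where LF 1, LF 3 and LF 4 were at -2.08, -2.02 and -2.00. Its gap to the nearest of them was 0.855 of the range over the 4 libraries, above Dixon's critical value at the 95% level. Of 24 groups looked at this way (10 genes, the ratio, and Apln over Aplnr, in HF and in LF), this was the only one. Chance gives about 1 in 20 for each group, so 1 among 24 is no more than chance can give. The groups also share genes and are not independent.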

How the results depend on the processing

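Under 17 other settings, those that leave out 1 library included, limma, edgeR or DESeq2 called none of the 10 markers. Over all genes the number called was 1 with no filter on low values, 313 with DESeq2 on recovered reads, 0 to 1 without 1 library, 641 when LF 1 and LF 2 were left out, 3421 when LF 3 and LF 4 were, and 0 under the others, the replicate block included. Deviations of same-numbered HF and LF libraries correlated at 0.11, -0.22, -0.14 and 0.18. HF 1 correlated best with LF 2, and HF 4 with LF 4. The values followed the LF pairs: HF 1 was at 0.11 and 0.31 with LF 1 and LF 2, and at -0.19 and -0.20 with LF 3 and LF 4. They therefore cannot show whether the replicate numbers pair the libraries. With the replicate block the difference in the log2 ratio was -0.18. Its range was -0.29 to -0.09 over libraries left out in turn, and under the other settings run for it, which include summed counts, values per kilobase and either LF pair left out, it stayed below 0 and moved by less than the pooled SD within groups (0.234). Log2 fold changes near 0 changed sign. Without 1 library they ranged from -0.086 to 0.29 for Car4, -0.13 to 0.33 for Ednrb, -0.16 to 0.26 for Fibin, -0.21 to 0.078 for Tbx2, -0.0025 to 0.29 for Prx and -0.17 to 0.031 for Apln. Fibin was at -0.023 with quantile normalisation, -0.010 with edgeR and -0.016 with DESeq2, and Prx at -0.016 with quantile normalisation. Without LF 1 and LF 2 the sign changed for Car4 (-0.40), Ednrb (-0.42), Fibin (-0.44), Tbx2 (0.16), Prx (-0.18), Cd93 (-0.058) and Hpgd (-0.088), and without LF 3 and LF 4 for Apln (0.15). No scaling moved the median of all genes by over 0.1. The causes were not tested.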
